A study of Mus musculus with 4 samples.

Results

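The liver clears drugs, hormones and reactive metabolites by joining them to glutathione, glucuronic acid or sulfate, and the 42 genes described here encode the enzymes of those reactions together with a small set of antioxidant genes. They were chosen by gene symbol alone, as the glutathione S-transferases, the UDP-glucuronosyltransferases, the sulfotransferases and 9 fixed antioxidant and hydrolase genes. The rule gave 42 of the 10923 measured genes. There were 3 alpha-class and 7 mu-class glutathione S-transferases, 8 transferases of the theta, pi, omega, kappa and zeta classes, 8 UDP-glucuronosyltransferases and 7 sulfotransferases. The 42 genes came from 58 probe sets, a probe set being the group of short probes for a transcript; 30 genes had 1 probe set, and the others were given the mean of theirs. A further 5 probe sets listed several genes of these families each, 3 of them from the Ugt1 family, and were not used, so no Ugt1 gene is described.

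RNA came from regenerating livers of male C57BL6/J mice, 6 to 13 weeks old, on 4 single-colour arrays. All mice received siRNA in a lipid reagent and lost 40% of the liver 3 days later, and livers were taken 48 hours after that partial hepatectomy. The siControl group (2 arrays) received control siRNA, and the siOrm group (2 arrays) received siRNA against Orm1, an acute phase gene of hepatocytes; the series asks which genes depend on it. The labels also name an extraction from cultured cells and another maker's labelling kit, and they do not say whether an array holds 1 mouse or a pool, so the spread between arrays may be technical. The siOrm titles can be read as replicate numbers or as Orm1 and Orm2; both arrays are treated as 1 group. All values are log signals from which the median of the 4 arrays was subtracted for each probe set, with base 2 assumed, so 0 is the median array and 1 is a doubling; if the logarithms were natural, differences would grow by a factor of 1.44. With 1 probe set, the middle values are mirror images by this step, and the level of a gene against another cannot be read.

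The targeted gene gave a weak check of the labels. Orm1 read 0.02 and 0.19 with control siRNA against -0.24 and -0.02 with Orm1 siRNA, a difference of -0.23 (SE 0.15, limma adjusted p = 0.994). The siOrm value nearest to control, -0.02, lay close to the lower siControl value, so these arrays do not by themselves show a knockdown. Orm2 read 0.16 and 0.90 against -0.94 and -0.16, and Orm3 read 0.15 and 1.196 against -0.31 and -0.15. Their differences of -1.08 (SE 0.34) and -0.91 (SE 0.34) did not pass (limma, adjusted p = 0.994 for both). Leaving 1 array out moved Orm1 between -0.34 and -0.12, Orm2 between -1.46 and -0.69 and Orm3 between -1.43 and -0.39, and Orm3 passed without siControl replicate 1 (limma, adjusted p = 0.0188). The siControl arrays were also less alike than the siOrm arrays: the standard deviation of the difference between the replicates over all genes was 0.384 for siControl and 0.249 for siOrm. Over the 42 conjugation and antioxidant genes it was 0.657 and 0.407. The most alike arrays came from different groups: siControl replicate 1 and siOrm replicate 2, at 0.233 over all genes and 0.321 over the 42. siControl replicate 2 also carried the highest mean of the macrophage markers (11 of 12 measured, means of -0.26, 0.71, -0.03 and -0.04 in siControl replicates 1 and 2 and siOrm replicates 1 and 2). The 10 measured hepatocyte markers of 12 had means between -0.07 and 0.02. In a tissue, fewer cells of a type and less RNA per cell cannot be told apart, and centred values do not show whether a marker is absent.

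Glutathione S-transferases (GSTs) attach the tripeptide glutathione to electrophiles, which are compounds that would otherwise react with protein and DNA. UDP-glucuronosyltransferases (UGTs) sit in the endoplasmic reticulum and add glucuronic acid to bilirubin, steroids and drugs, and sulfotransferases (SULTs) add sulfate in the cytosol. Many antioxidant genes and some GST genes are switched on by the transcription factor NRF2, encoded by Nfe2l2, which binds an antioxidant response element when oxidants or electrophiles release it from its inhibitor KEAP1. The nuclear receptors CAR and PXR induce several GST, UGT and SULT genes as well. Hepatocytes are the main site of conjugation in the body.

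Because Nfe2l2 and known NRF2 targets are among the 42 genes, the core of the antioxidant response element was searched in their promoters, taken as 250 bases before to 50 bases after each transcription start (RefSeq, GRCm38.p6). The letters TGACNNNGC, read on both strands, were found in 7 of the 35 genes with a window in the table, or 20%, against 14% of all genes with a window and 12.4% of all windows. By family the matches lay in 4 of 6 antioxidant genes, 1 of 2 alpha GSTs, 2 of 7 mu GSTs and none of the 7 other GSTs, 7 UGTs and 6 SULTs with a window. A related form, TGANTCAGC, which overlaps the first where N is C, was added after the Srxn1 window had been read. It lay in 2 of the 35 genes, Srxn1 and Gstp1, or 5.71%, against 1.37% of all genes. Srxn1 was certain to match, so these shares cannot be compared. A match is a description of letters and not a binding site. The Srxn1 promoter is shown in full because it held both forms, in capitals, with the first form on the opposite strand and after the start site:
Srxn1, chr2:152105274-152105573, gene on the plus strand: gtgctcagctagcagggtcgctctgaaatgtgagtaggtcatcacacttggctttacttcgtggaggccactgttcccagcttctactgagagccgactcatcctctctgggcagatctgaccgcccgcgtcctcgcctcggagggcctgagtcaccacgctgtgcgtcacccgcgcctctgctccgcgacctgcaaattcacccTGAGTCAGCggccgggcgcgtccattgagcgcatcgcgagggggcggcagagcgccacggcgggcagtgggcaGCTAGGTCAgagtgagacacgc
The other matches are shown with up to 15 bases on each side, on the gene's own strand and with the match in capitals, so that the match can be compared between genes. In Txnrd1 and Gclm the match reads on the opposite strand, and in Gstp1 it is of the second form:
Txnrd1, chr10:82859099-82859137, gene on the plus strand: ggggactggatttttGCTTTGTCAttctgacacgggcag
Nfe2l2, chr2:75704880-75704913, gene on the minus strand: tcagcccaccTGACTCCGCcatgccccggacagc
Gclm, chr3:122245408-122245446, gene on the plus strand: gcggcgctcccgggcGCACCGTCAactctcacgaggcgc
Gsta3, chr1:21240449-21240487, gene on the plus strand: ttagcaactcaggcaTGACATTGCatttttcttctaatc
Gstm5, chr3:107895797-107895835, gene on the plus strand: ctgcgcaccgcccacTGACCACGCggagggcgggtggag
Gstm7, chr3:107931720-107931758, gene on the minus strand: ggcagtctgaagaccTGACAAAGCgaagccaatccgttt
Gstp1, chr19:4037963-4038001, gene on the minus strand: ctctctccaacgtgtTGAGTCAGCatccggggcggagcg
The match began 121 bases before the start site in Gsta3, 129 in Gstm7, 134 in Gclm, 92 in Txnrd1, 240 in Nfe2l2, 74 in Gstp1 and 42 in Gstm5, the position being that of its leftmost base on the gene's strand. Of the 8 genes with a match of either form, 4 stood higher in siOrm (Gsta3, Gstm5, Gstm7 and Gstp1) and 4 lower (Srxn1, Txnrd1, Nfe2l2 and Gclm). Of all genes, 52.2% stood higher and 47.8% lower. Gstm5, Gstm7, Gstp1, Nfe2l2 and Gclm turned sign with 1 array or another left out, so their directions are not settled.

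The question for these genes was whether conjugation and antioxidant transcripts differed between livers given Orm1 siRNA and livers given control siRNA. Of the 42 genes, 28 stood higher and 14 lower in siOrm, where 52.2% of all genes stood higher and 47.8% lower, and none passed the test (limma with Benjamini-Hochberg adjustment over all genes, 0 higher and 0 lower at an adjusted p under 0.05; 0% of all genes passed either way). The differences ran from -1.57 for Gstm3 to 0.84 for Gstt3, with a median of 0.09 (0.17 after quantile normalization) against 0.01 over all genes. The siOrm pair lay wholly above the siControl pair, here called separated, for 13 of the 42 genes (31.0%, against 17.0% of all genes) and below them for 8 (19.0%, against 15.3%). These shares above and below are the background for the separated counts of each family and list. Without siControl replicate 1 the order on the upper side turned round, with 38.1% of the 42 genes above against 44.6% of all genes. It did not turn round when another array was left out. The shares were 66.7% against 31.6% without siControl replicate 2, 42.9% against 29.2% without siOrm replicate 1 and 47.6% against 32.4% without siOrm replicate 2. Without adjustment, 7 of the 42 genes (16.7%) had a p under 0.05 and stood higher in siOrm, against 238 of all genes (2.18%), and 0 stood lower, against 282 (2.58%). The 7 genes on the higher side were Ugt2b1, Ugt3a1, Ugt2a3, Sult1d1, Gstk1, Gstt1 and Gsta3. The count was 0 without siOrm replicate 1, where 0.568% of all genes were higher at that threshold, and 11 without siControl replicate 2, where 3.42% were. The variance prior with a trend called 11 genes after adjustment, 0 of them among the 42. Paralogous genes can share regulation and probe sequence, so the 42 genes are not 42 independent observations.

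**Figure D1:**
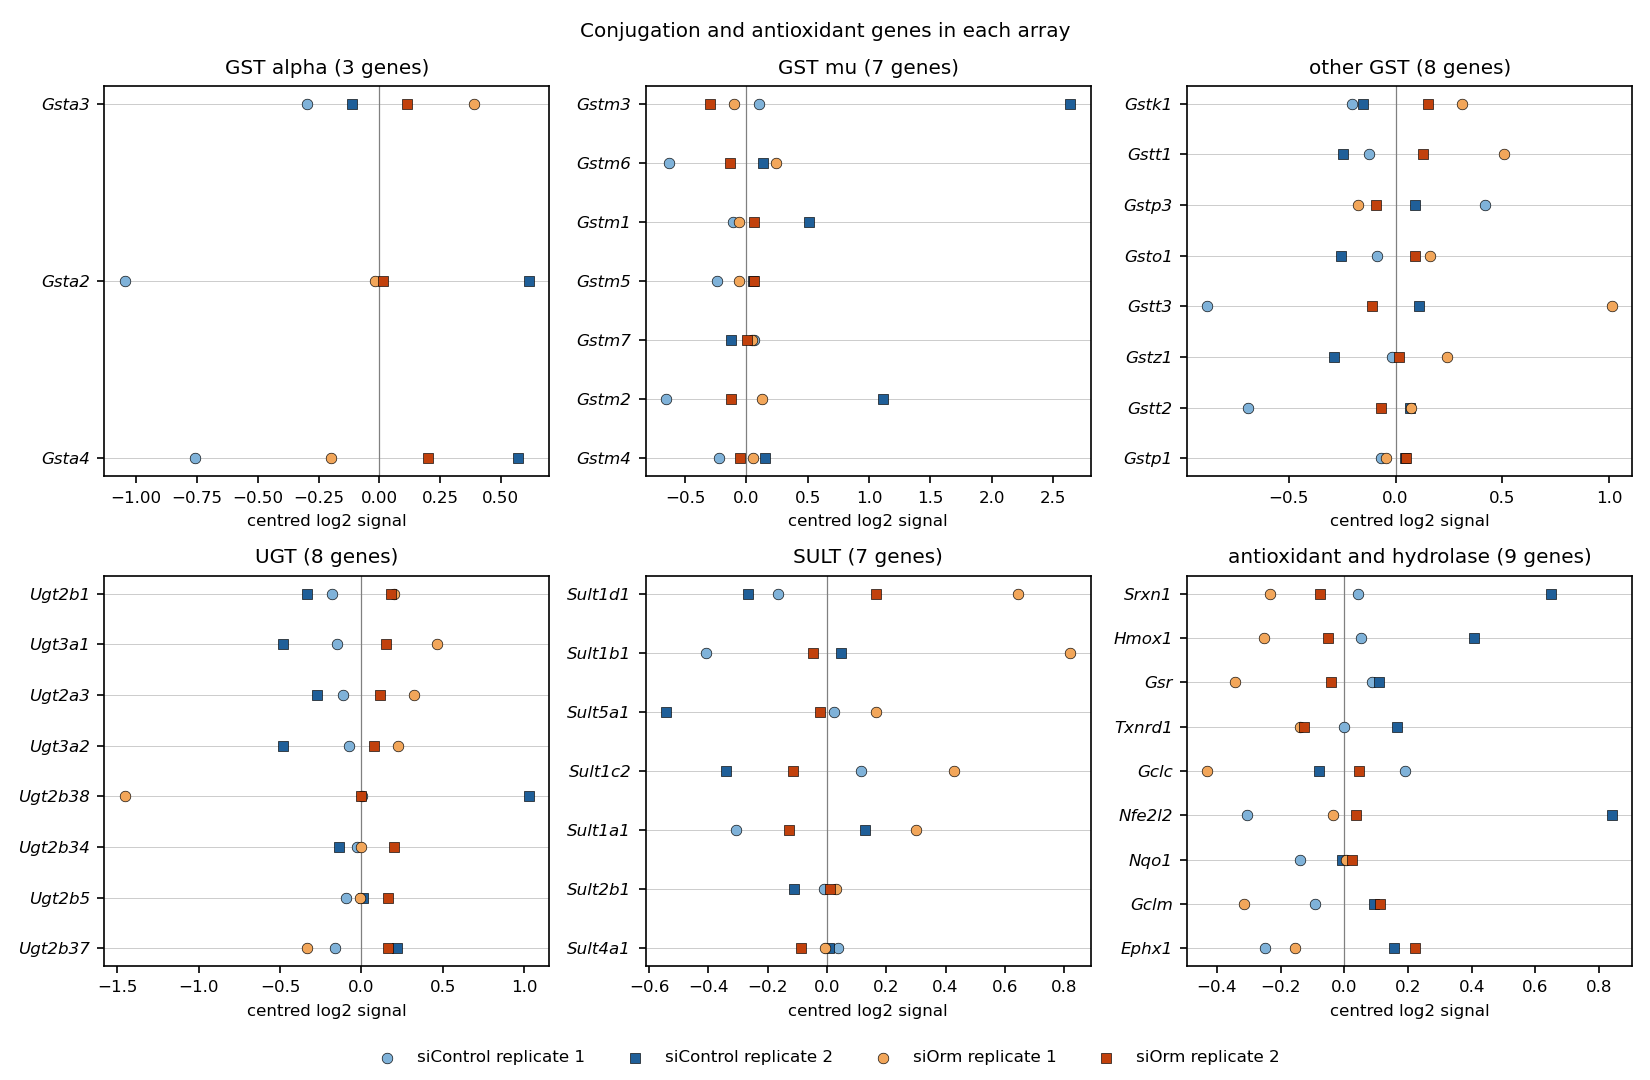
Each panel holds the genes of a family, with the centred log2 signal on the horizontal axis and 1 point per array (blue, siControl; orange, siOrm; circles, replicate 1; squares, replicate 2). Gstm3 reaches 2.64 in siControl replicate 2, with its other points from -0.30 to 0.10, while Ugt2b1 and Gstk1 have both siOrm points to the right of both siControl points; axes differ between panels.

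Among the alpha-class GSTs, which handle products of lipid peroxidation, Gsta3 was separated between the groups. Gsta3 stood at -0.30 and -0.11 in siControl and at 0.39 and 0.11 in siOrm. The siOrm arrays lay above both siControl arrays, and the difference was 0.46 (SE 0.16, 95% interval 0.06 to 0.85). Both of its probe sets had that order. Gsta2 and Gsta4, the latter specific for hydroxyalkenals, had a different pattern, with the siControl arrays at the extremes and the siOrm arrays between them. Gsta2 stood at -1.05 and 0.62 in siControl and at -0.02 and 0.02 in siOrm. Gsta4 stood at -0.76 and 0.57 in siControl and at -0.20 and 0.20 in siOrm. Their differences were 0.22 (SE 0.51) and 0.09 (SE 0.43), both smaller than the gap between the siControl arrays. Gsta2 turned to -0.62 without siControl replicate 1 and to 1.05 without siControl replicate 2; Gsta4 turned to -0.57 and 0.76, and to -0.11 without siOrm replicate 2.

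The mu-class GSTs lie side by side on chromosome 3, in the order Gstm5, Gstm7, Gstm6, Gstm3, Gstm2, Gstm1 and Gstm4 with 0 other coding genes between them, and their values differed widely along that cluster. Gstm3 stood at 0.10 and 2.64 in siControl and at -0.10 and -0.30 in siOrm. The siOrm pair lay below the siControl pair, but the difference of -1.57 (SE 0.77, 95% interval -3.49 to 0.35) rested on siControl replicate 2, and it was -0.30 without that array. Its probe sets agreed on this array, at 2.69 and 2.59. Gstm1, the abundant mu-class enzyme of liver, stood at -0.11 and 0.51 in siControl and at -0.06 and 0.06 in siOrm (difference -0.20, SE 0.23), and turned to 0.11 without siControl replicate 2. Gstm6 stood at -0.63 and 0.14 against 0.25 and -0.14, a difference of 0.30 (SE 0.28) that turned to -0.08 without siControl replicate 1. Gstm5 stood at -0.24 and 0.06 against -0.06 and 0.06, a difference of 0.09 (SE 0.16) that turned to -0.05 without siControl replicate 1. For all 7 mu-class genes the siControl arrays lay further apart than the group means did, as for 23 of the 42 genes and 66.9% of all genes. The differences of Gstm2, Gstm4 and Gstm7 ran from -0.23 to 0.06, and each turned sign when 1 siControl array was left out.

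Gstm2 and Gstm3 were the 2 of the 42 genes that passed once siControl replicate 1 was left out, so that siControl replicate 2 alone stood for its group and was assumed to vary like the siOrm pair. Gstm3 was then lower in siOrm by a log2 difference of -2.84 (limma, adjusted p = 0.00374) and Gstm2 by -1.11 (limma, adjusted p = 0.0379). In that fit 1.68% of all genes passed lower and 0.421% higher. The macrophage markers moved with this array, as given above, and so did the stellate cell markers (9 of 10 measured, means of -0.24, 0.43, -0.12 and 0.13 in siControl replicates 1 and 2 and siOrm replicates 1 and 2) and neutrophil markers (9 of 11 measured, means of 0.10, 0.51, -0.08 and -0.04). Endothelial markers (9 of 10 measured) had means of -0.17 and 0.31 in siControl and 0.00 and -0.04 in siOrm. Lymphocyte markers (10 of 12) ranged from -0.05 to 0.13 and cholangiocyte markers (6 of 8) from -0.11 to 0.16. Summed over the list, the macrophage markers came to -2.85 and 7.80 in siControl and to -0.29 and -0.40 in siOrm. Their part in the values of Gstm2 and Gstm3 was not tested.

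Of the 8 GSTs of other classes, 7 stood higher in siOrm, 4 of them with separated arrays, and the median difference was 0.31. Gstk1, the mitochondrial and peroxisomal kappa-class enzyme, stood at -0.21 and -0.15 in siControl and at 0.31 and 0.15 in siOrm. The replicates of each group were close for Gstk1, and the difference was 0.41 (SE 0.13, 95% interval 0.08 to 0.74). Gstt1, a theta-class enzyme that also acts on small halogenated compounds, stood at -0.13 and -0.25 against 0.51 and 0.13, a difference of 0.50 (SE 0.17, 95% interval 0.07 to 0.93), or 0.31 without siOrm replicate 1. Its neighbour Gstt3 was spread over nearly 2 log2 units, with siControl replicate 1 at -0.88 and siOrm replicate 1 at 1.01 and the other arrays at 0.11 and -0.11; its difference of 0.84 came to 0.28 if siOrm replicate 1 was left out and to 0.34 if siControl replicate 1 was. Gsto1, an omega-class enzyme with thioltransferase activity, stood at -0.09 and -0.26 against 0.16 and 0.09 (difference 0.30, SE 0.14). Gstp3, a pi-class gene, was the exception: at 0.42 and 0.09 against -0.18 and -0.09, the siOrm pair lay below the siControl pair (difference -0.39, SE 0.16), and the difference was -0.23 without siControl replicate 1. Gstz1, which metabolises a tyrosine breakdown product, Gstt2 and Gstp1 differed by 0.28, 0.32 and 0.01; of these 3, Gstz1 had separated arrays. Leaving siControl replicate 1 out turned Gstt2 to -0.06 and Gstp1 to -0.04, and Gstz1 was 0.15 without siControl replicate 2.

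Among the UGTs, 6 of 8 genes stood higher in siOrm and 5 of them had separated arrays, with a median difference of 0.30. Ugt2b1, one of several enzymes of the steroid- and drug-conjugating 2B group, stood at -0.18 and -0.33 in siControl and at 0.20 and 0.18 in siOrm. The siOrm arrays were nearly equal, and the difference was 0.45 (SE 0.13, 95% interval 0.12 to 0.78). Ugt3a1 and Ugt3a2, neighbouring genes of the UGT3 family, which use sugars other than glucuronic acid, went the same way. Ugt3a1 stood at -0.15 and -0.48 against 0.46 and 0.15, a difference of 0.62 (SE 0.19, 95% interval 0.16 to 1.08), with both of its probe sets in that order. Ugt3a2 stood at -0.08 and -0.48 against 0.22 and 0.08 (difference 0.43, SE 0.18), or 0.23 without siControl replicate 2. Ugt2a3 stood at -0.12 and -0.27 against 0.32 and 0.12 (difference 0.42, SE 0.15, 95% interval 0.05 to 0.78). For these 4 genes siControl replicate 2 was the lowest array and siOrm replicate 1 the highest.

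In the rest of the 2B group siOrm replicate 1 was not the highest array. Ugt2b38 stood at 0.00 and 1.03 in siControl and at -1.45 and 0.00 in siOrm, the largest siOrm gap of the 42 genes, and its difference of -1.24 (SE 0.55) had an interval from -2.60 to 0.11. Its groups met at 0.00, so the separation rests on the last digits, and the difference ran from -1.97 without siOrm replicate 2 to -0.52 without siOrm replicate 1. It was picked out after its values were seen. Ugt2b34, Ugt2b5 and Ugt2b37 differed by 0.18, 0.12 and -0.12. Of these, Ugt2b34 had the siOrm pair above the siControl pair, at -0.03 and -0.14 against 0.00 and 0.20, though not in each of its probe sets. With siOrm replicate 2 left out, Ugt2b34 was 0.08 and Ugt2b5 0.03, and Ugt2b37 turned to 0.07 without siControl replicate 2, to 0.13 without siOrm replicate 1 and to 0.01 after quantile normalization. Ugt2b38 lies next to Ugt2a3 with 0 coding genes between them, and the neighbours stood on opposite sides.

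**Figure D2:**
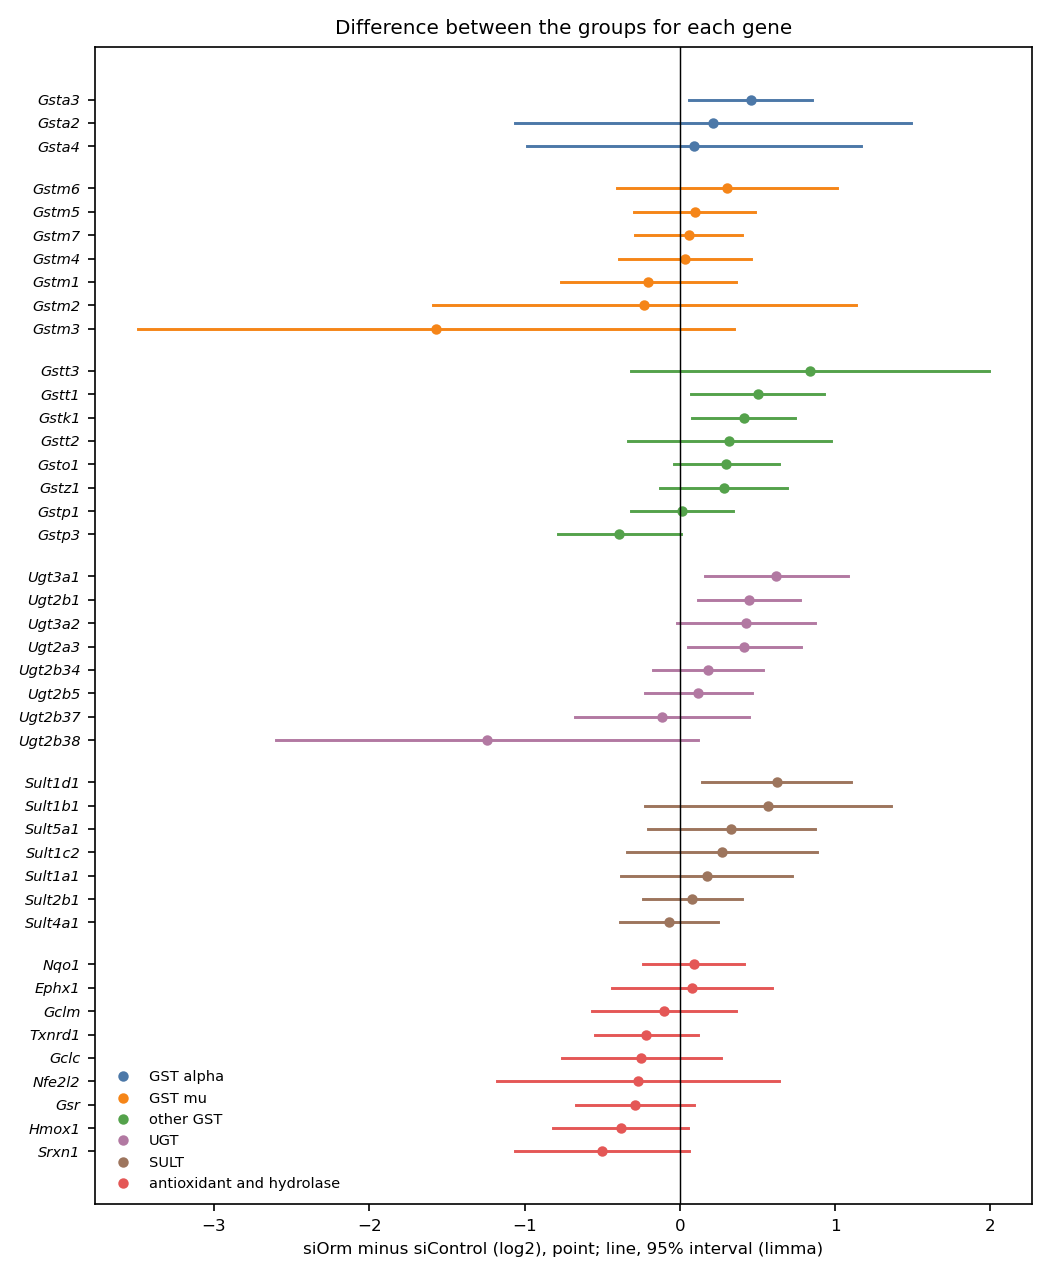
Points are siOrm minus siControl on the log2 scale and lines are 95% intervals from limma, for all 42 genes grouped by family. The intervals of 7 genes lie above 0, in the GST, UGT and SULT families, and that of Gstm3 is the widest, from -3.49 to 0.35.

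Of the 7 sulfotransferases, 6 stood higher in siOrm, and the median difference was 0.27. Sult1d1 and Sult2b1 were separated upwards (17.0% of all genes were) and Sult4a1 downwards (15.3% of all genes were). Sult1d1, which sulfates catecholamines and other phenols, stood at -0.17 and -0.27 in siControl and at 0.65 and 0.17 in siOrm. The siOrm pair lay above the siControl pair in each of its probe sets, and the difference was 0.62 (SE 0.19, 95% interval 0.14 to 1.10), or 0.38 without siOrm replicate 1. Its neighbour Sult1b1, which acts on thyroid hormones and phenols, was also highest in siOrm replicate 1. Sult1b1 stood at -0.41 and 0.05 against 0.82 and -0.05, a difference of 0.57 (SE 0.32) that was 0.13 without siOrm replicate 1. Sult5a1 stood at 0.02 and -0.54 against 0.17 and -0.02 (difference 0.33, SE 0.22), or 0.05 without siControl replicate 2. Sult1c2 stood at 0.12 and -0.34 against 0.43 and -0.12, a difference of 0.27 (SE 0.25) that dropped to 0.04 when siControl replicate 2 was left out and turned to -0.00303 when siOrm replicate 1 was. The phenol sulfotransferase Sult1a1, the cholesterol sulfotransferase Sult2b1 and Sult4a1, a brain-enriched member, differed by 0.17, 0.08 and -0.07. The groups nearly met in Sult2b1, with siControl replicate 1 at -0.01 and siOrm replicate 2 at 0.01. They nearly met in Sult4a1 too, with siControl replicate 2 at 0.01 and siOrm replicate 1 at -0.01. Sult1a1 turned to -0.04 without siControl replicate 1 or siOrm replicate 1. The sulfotransferase mean was 0.34 in siOrm replicate 1 and -0.03 in siOrm replicate 2, and leaving siOrm replicate 1 out gave a family median of 0.07, while leaving siControl replicate 2 out gave 0.05. siOrm replicate 1 was the highest array for 6 of the 7 genes, for 18 of the 42 (42.9%) and for 26.3% of all genes. Erythroid markers (4 of 8 measured) also had their highest mean there, at 0.38 against -0.09 and -0.25 in siControl and 0.09 in siOrm replicate 2, and their part was not tested.

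The antioxidant and hydrolase genes leaned the other way, with 7 of 9 lower in siOrm and a median difference of -0.25. Of the 9, 4 were separated downwards (15.3% of all genes were) and 1, Nqo1, upwards (17.0% of all genes were). Leaving siControl replicate 2 out gave a family median of -0.13, and leaving siOrm replicate 1 out gave -0.14. Srxn1, sulfiredoxin, which repairs overoxidised peroxiredoxins, stood at 0.04 and 0.65 in siControl and at -0.23 and -0.08 in siOrm. Both siOrm arrays were below both siControl arrays, and the difference was -0.50 (SE 0.22, 95% interval -1.06 to 0.06), or -0.20 without siControl replicate 2. Its 4 probe sets were unequal: 2 of them stood at 1.29 and 1.07 in siControl replicate 2, and the others at 0.17 and 0.06. Hmox1, heme oxygenase 1, stood at 0.05 and 0.41 against -0.25 and -0.05 (difference -0.38, SE 0.17), or -0.20 without siControl replicate 2. Gsr, which reduces oxidised glutathione, stood at 0.09 and 0.11 against -0.34 and -0.04 (difference -0.29, SE 0.15), or -0.14 without siOrm replicate 1. Txnrd1, the cytosolic thioredoxin reductase, stood at 0.00 and 0.17 against -0.14 and -0.13 (difference -0.21, SE 0.13), or -0.13 without siControl replicate 2. These 4 genes were the separated ones on the lower side. In single probe sets the groups overlapped for 1 of Srxn1 (-0.10 and 1.29 in siControl, -0.10 and 0.10 in siOrm). They also overlapped for 1 of Txnrd1 (-0.03 and 0.09 in siControl, 0.03 and -0.23 in siOrm). For each of the 4 gene means siControl replicate 2 was the highest array. The part of the macrophage markers, highest in the same array for 10 of 11 genes, was not tested.

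The 2 subunits of glutamate-cysteine ligase, which carries out the rate-limiting step of glutathione synthesis, were lowest in siOrm replicate 1. The catalytic subunit gene Gclc stood at 0.19 and -0.08 in siControl and at -0.43 and 0.04 in siOrm. Its difference was -0.25 (SE 0.21), or -0.01 without siOrm replicate 1; its probe sets gave -0.47 and -0.03. The modifier subunit gene Gclm stood at -0.09 and 0.09 against -0.32 and 0.11, a difference of -0.10 (SE 0.19) that turned to 0.11 without siOrm replicate 1. The NRF2 gene itself, Nfe2l2, stood at -0.30 and 0.84 against -0.04 and 0.04. With the siControl arrays on either side of the siOrm arrays, the difference of -0.27 (SE 0.36) turned to 0.30 without siControl replicate 2. Nqo1, a quinone reductase that is a standard NRF2 target, stood at -0.14 and -0.01 against 0.01 and 0.03 (difference 0.09, SE 0.13, 95% interval -0.24 to 0.41); the difference was 0.02 with siControl replicate 1 left out and 0.16 with siControl replicate 2 left out. Ephx1, microsomal epoxide hydrolase, stood at -0.25 and 0.15 against -0.15 and 0.22, a difference of 0.08 (SE 0.21) that turned to -0.12 without siControl replicate 1 and to -0.11 without siOrm replicate 2.

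**Figure D3:**
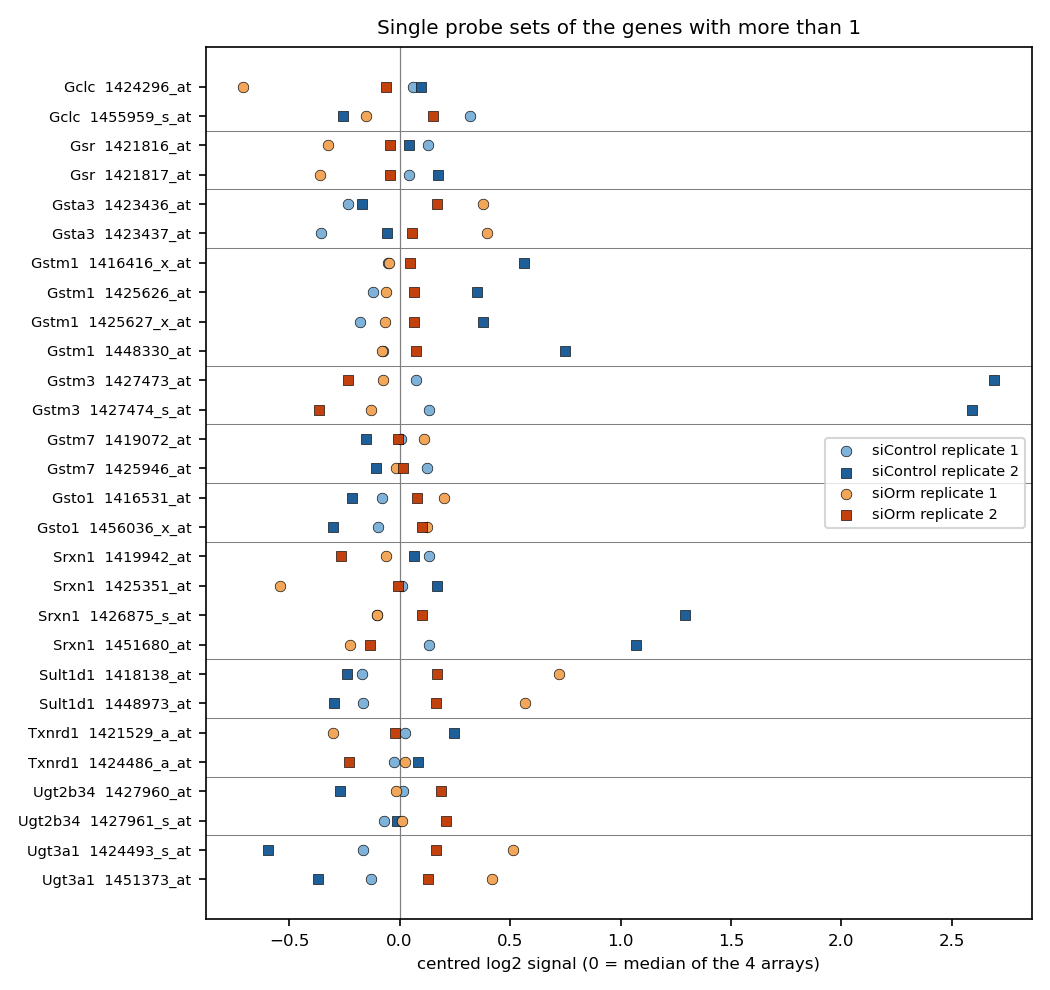
Rows are the single probe sets of the 12 genes with more than 1, with the centred log2 signal on the horizontal axis and 1 point per array (colours and shapes as in the plot of genes by array). Both Gstm3 probe sets stand above 2.5 in siControl replicate 2, while 2 of the 4 Srxn1 probe sets stand near 1 there and the others near 0.

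The gap between replicates of the same group exceeded 1 log2 unit for more of these genes than for genes at large. The siControl arrays were more than 1 apart for 6 of the 42 genes (14.3%, against 2.53% of all genes), namely Gstm3 at 2.54, Gstm2 at 1.77, Gsta2 at 1.66, Gsta4 at 1.33, Nfe2l2 at 1.14 and Ugt2b38 at 1.03. In each of these 6 siControl replicate 2 was the higher. The siOrm arrays were more than 1 apart for Ugt2b38 and Gstt3 (4.76%, against 0.449% of all genes). siControl replicate 2 was the highest array for 13 of the 42 genes (31.0%, against 28.1% of all genes) and the lowest for another 13 (31.0%, against 38.9%). siControl replicate 1 was the lowest for 18 (42.9%, against 20.6%), among them all 3 alpha-class and 5 of the 7 mu-class GSTs. The genes that were highest in siControl replicate 2 were mu- and alpha-class GSTs, antioxidant genes, Ugt2b37 and Ugt2b38, and those that were lowest there were UGTs, SULTs, Gstt1, Gsto1, Gstz1 and Gstm7.

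**Figure D4:**
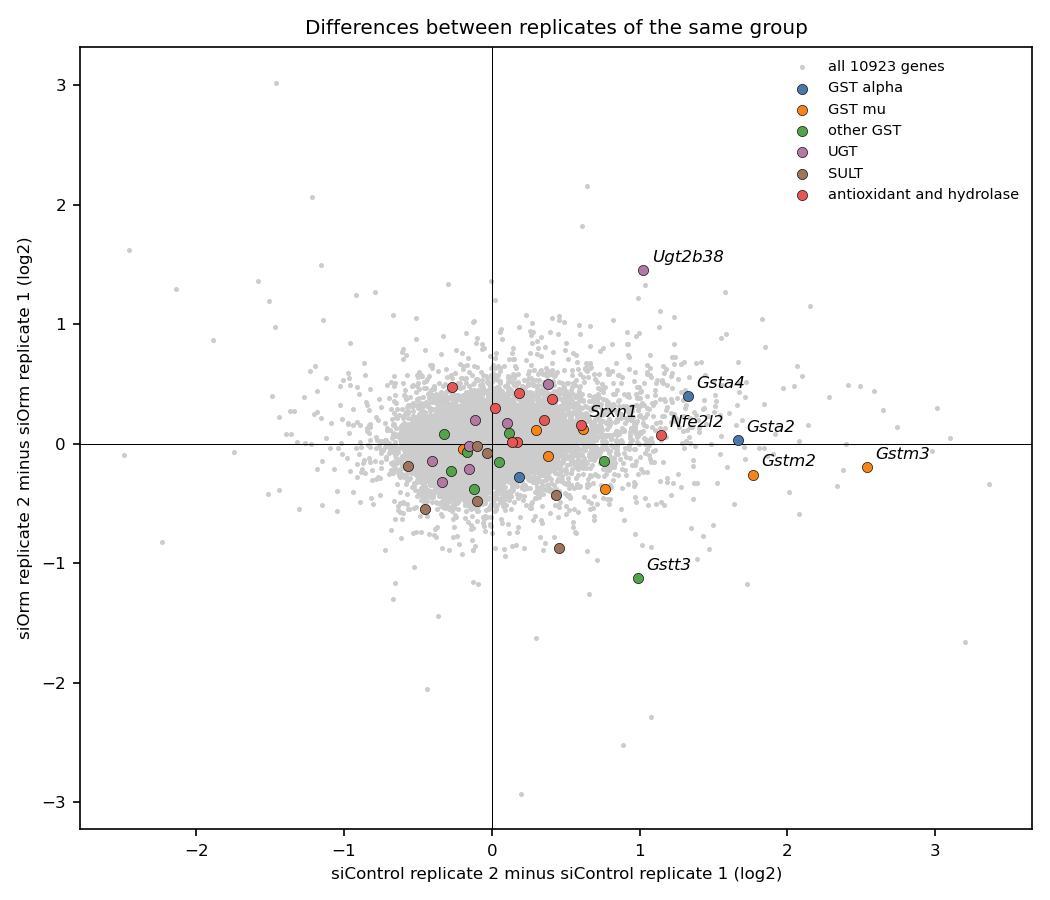
Each point is a gene, with siControl replicate 2 minus replicate 1 on the horizontal axis and siOrm replicate 2 minus replicate 1 on the vertical axis, both in log2 units; grey, all 10923 genes; colours, the 6 families. Gstm3, Gstm2, Gsta2 and Gsta4 lie far to the right at 2.54, 1.77, 1.66 and 1.33, and Ugt2b38 and Gstt3 stand more than 1 from 0 on the vertical axis.

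Other genes of the same pathways were counted from 7 lists, and none of their genes passed in either direction (limma, smallest adjusted p = 0.857, for Aldh3a2). Their separated counts are to be read against 17.0% of all genes upwards and 15.3% downwards. Of 24 measured genes of glutathione supply and use, 8 were separated upwards and 1 downwards, with a median difference of 0.10. Cth, which makes cysteine from cystathionine, differed by 0.37 (SE 0.17), Ahcy, which splits S-adenosylhomocysteine, by 0.39 (SE 0.19) and Mgst3, a microsomal GST, by 0.25 (SE 0.13). Cth was 0.17 without siControl replicate 1 and Ahcy 0.17 without siControl replicate 2. Of 19 superoxide, peroxide and thioredoxin genes, 7 were separated upwards and 0 downwards (median 0.07). Txnip, the thioredoxin inhibitor, differed by 0.52 (SE 0.16), Msra, which reduces oxidised methionine, by 0.26 (SE 0.13) and Sod2, the mitochondrial superoxide dismutase, by 0.20 (SE 0.14), or 0.12 without siOrm replicate 1. Of 16 genes listed as other conjugating enzymes, together with epoxide hydrolases, 9 were separated upwards and 0 downwards (median 0.18). Ephx2, soluble epoxide hydrolase, differed by 0.39 (SE 0.13), Acsm3, an acyl-CoA synthetase, by 0.70 (SE 0.26) and Inmt, a methyltransferase, by 0.42 (SE 0.18). Acsm3 was 0.40 without siOrm replicate 1 and Inmt 0.21 without siControl replicate 2.

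Regulators and targets of NRF2 outside the 42 genes were mixed: of 26 measured, 8 were separated upwards and 2 downwards, with a median of 0.03. Aldh3a2, a fatty aldehyde dehydrogenase, stood at -0.33 and -0.39 in siControl and at 0.49 and 0.33 in siOrm, a difference of 0.77 (SE 0.13). Pgd, an enzyme of the pentose phosphate pathway that yields NADPH, differed by -0.71 (SE 0.33) with siControl replicate 2 at 1.10, and Bach1, a repressor at antioxidant response elements, by -0.40 (SE 0.19). Pgd was -0.20 without siControl replicate 2 and passed at -1.22 without siControl replicate 1 (limma, adjusted p = 0.023), and Bach1 was -0.21 without siOrm replicate 1. For the cofactors of glucuronidation and sulfation, 4 of 16 genes were separated upwards and 1 downwards (median 0.04). Ugp2, which makes UDP-glucose, the precursor of UDP-glucuronic acid, differed by 0.46 (SE 0.17) and Suox, sulfite oxidase, by 0.36 (SE 0.15). With siOrm replicate 1 left out they came to 0.26 and 0.24. Papss1, a synthase of the sulfate donor, stood at 0.13 and 0.38 against -0.50 and -0.13, a difference of -0.57 (SE 0.18).

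The list of conjugate and drug efflux genes had a median of -0.01 over 13 genes, with 2 separated upwards and 1 downwards. Not all of its genes encode pumps that export conjugates. Slc47a1, a cation exporter, differed by 0.57 (SE 0.20) and Abcc6, another transporter, by 0.41 (SE 0.16). Abcc2, the canalicular exporter of glutathione and glucuronide conjugates, differed by -0.34 (SE 0.27) with siControl replicate 2 at 0.69. Slc47a1 was 0.32 without siOrm replicate 1, and Abcc2 turned to 0.04 without siControl replicate 2. siControl replicate 2 was the highest array for 8 of these 13 genes. Of 15 receptors and factors that control conjugating enzymes, 4 were separated upwards and 0 downwards (median 0.09). Nr1i3, which encodes CAR, stood at -0.06 and -0.18 in siControl and at 0.48 and 0.06 in siOrm (difference 0.39, SE 0.18). Nr1h4, the bile acid receptor gene, differed by 0.66 (SE 0.31) with siOrm replicate 1 at 0.97, and Rxrg, a retinoid X receptor gene, by 0.46 (SE 0.20). With siOrm replicate 1 left out, Nr1i3 came to 0.18 and Nr1h4 to 0.20, and Rxrg was 0.20 without siControl replicate 1.

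**Figure D5:**
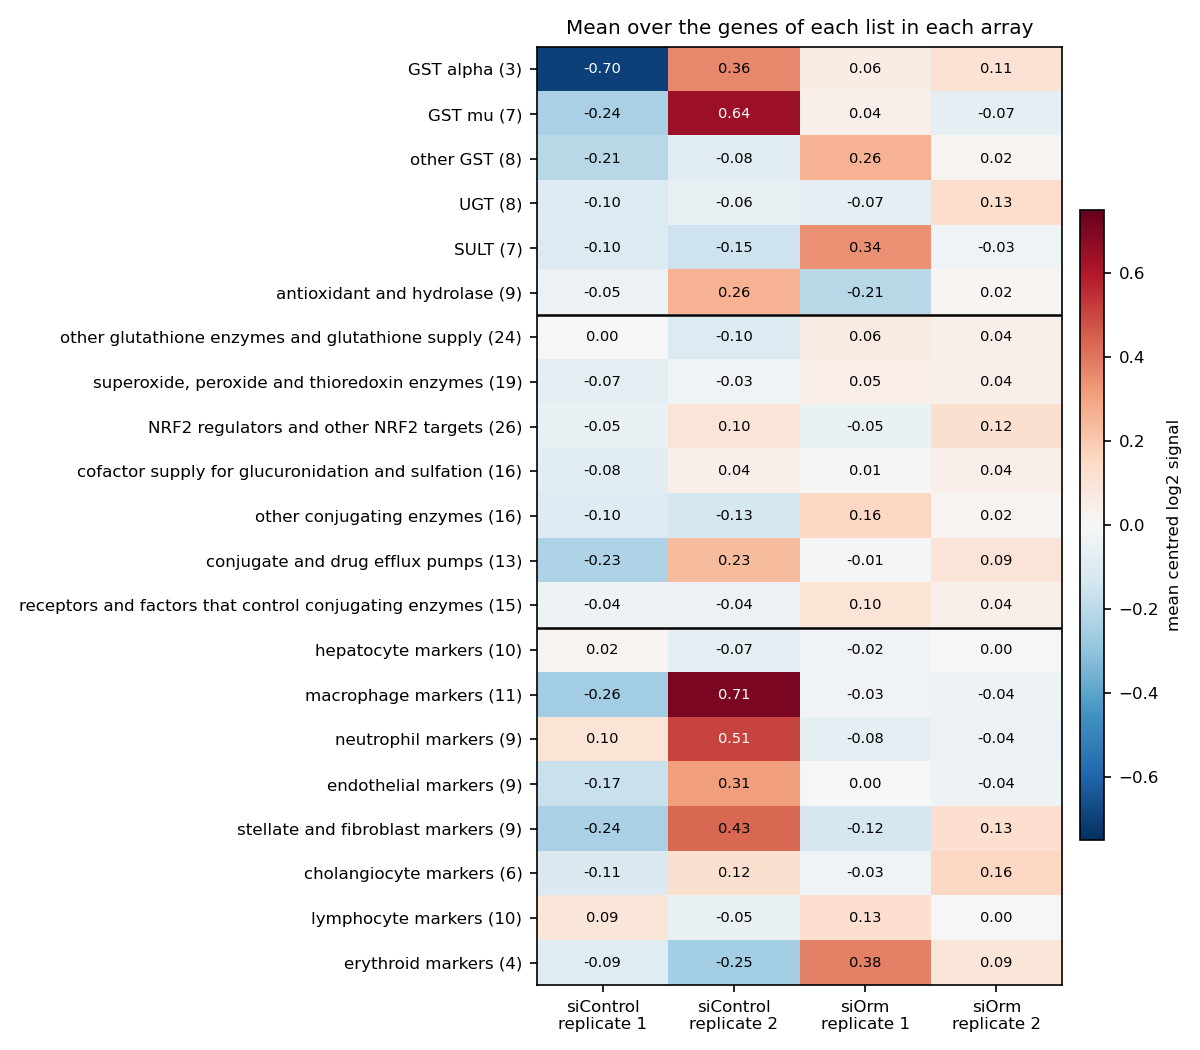
Cells give the mean centred log2 signal over the measured genes of a list (number in brackets) in each array, for the 6 families, the 7 lists of related genes and the 8 lists of cell type markers. Alpha- and mu-class GSTs run from -0.70 and -0.24 in siControl replicate 1 to 0.36 and 0.64 in siControl replicate 2, where macrophage, neutrophil, endothelial and stellate cell markers also have their highest means.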

How the data were processed

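The deposited table holds single-colour array values of 18852 probe sets in 4 liver samples. The authors deposited log2 values (base assumed) centred on each probe set's median over the arrays (largest remaining median 4.8e-07, from the values); the software and the normalization between arrays are, in the sources used here, not given. Probe sets were named through the platform annotation: 17209 had 1 symbol, 564 several, 1044 none, and 35 were controls. Their mean gave 10923 gene values. Centring hides brightness, so dim or saturated probe sets were neither recognised nor removed. The number of arrays limits the precision.

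siOrm minus siControl was tested two-sided over all genes with limma 3.58.1 (R 4.3.3; lmFit, eBayes, constant variance prior with 3.6 degrees of freedom beside 2 residual ones) and Benjamini-Hochberg adjustment at 0.05. The code of the fit was checked on simulated data with independent noise and no outlying array, so its behaviour on these arrays was not tested. Members and lists were chosen with earlier results of these data known. Values in all arrays are given for up to 4 genes per family with the smallest p, those with an unadjusted p under 0.05 and the 9 antioxidant and hydrolase genes, and differences for the 3 genes of smallest p in each list. Other genes singled out by value were picked after their values were seen. As alternatives, 10 settings were run, including each array left out.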

Additional observations from a re-analysis of the deposited data

How the results depend on the processing

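With 1 array left out, the number of genes past the test ran from 0 to 229 and of the 42 genes from 0 to 2 (Gstm2 and Gstm3), in both cases reached without siControl replicate 1. The prior with a trend called 11 genes, 0 of the 42. The median over the 42 genes ran from -0.0479 without siControl replicate 1 to 0.193 without siControl replicate 2. Family medians ran from -0.572 to 0.757 for alpha GSTs, -0.154 to 0.223 for mu GSTs, 0.198 to 0.366 for UGTs, 0.0496 to 0.426 for SULTs, 0.255 to 0.391 for the other GSTs and -0.315 to -0.131 for antioxidant genes. With 1 array left out, the remaining siOrm arrays lay above the siControl ones for 16 to 28 genes and below for 8 to 15. Without siControl replicate 1, 16 genes (38.1%, against 44.6% of all genes) lay above and 15 (35.7%, against 33.8%) below. Without siControl replicate 2, 28 (66.7%, against 31.6%) lay above and 10 (23.8%, against 36.8%) below. Without siOrm replicate 1 the counts were 18 (42.9%, against 29.2%) and 8 (19.0%, against 23.5%). Without siOrm replicate 2 they were 20 (47.6%, against 32.4%) and 11 (26.2%, against 32.4%). Fewer arrays are compared, so such counts can grow, but the 8 below was also the count with all arrays. An unadjusted p under 0.05 with a higher value in siOrm was reached by 0 to 11 genes. These 3 ranges, and the last count in all other settings, were chosen after seeing the data. Single genes turned sign in these fits, with ranges from -0.616 to 1.05 (Gsta2), -0.572 to 0.757 (Gsta4), -0.0816 to 0.686 (Gstm6), -0.511 to 0.107 (Gstm1), -0.0543 to 0.244 (Gstm5), -0.00303 to 0.542 (Sult1c2), -0.84 to 0.305 (Nfe2l2), -0.315 to 0.113 (Gclm), -0.121 to 0.283 (Ephx1), -1.11 to 0.655 (Gstm2), -0.154 to 0.223 (Gstm4), -0.0398 to 0.155 (Gstm7), -0.0628 to 0.698 (Gstt2), -0.0432 to 0.0712 (Gstp1), -0.365 to 0.134 (Ugt2b37), -0.0434 to 0.392 (Sult1a1) and -0.73 to 0.0407 (Abcc2), the last 8 added after seeing the data; the cause was not tested. With the replicate number as a replicate block, 0 genes passed and 8 of the 42 had an unadjusted p under 0.05 on the higher side (2.54% of all genes); same-numbered arrays deviated together with a correlation of 0.132 over genes, which with 2 numbers does not show that they are paired. In quantile normalization, array-median centring, the median of probe sets and the set without shared-sequence probe sets (35 of the 42 genes left), 0 genes passed, and none of the 28 genes given in every array turned sign where measured. Outside these 28, Ugt2b37 turned to 0.00973 after quantile normalization, which also moved Gsta4 to 0.277, Gstm1 to -0.0746, Nfe2l2 to -0.0801, Gclm to -0.0244 and Ephx1 to 0.19. Without shared-sequence probe sets, Gclc was -0.466. The centred values give no signal over background, so dim probe sets could not be set apart.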
